A study of Mus musculus with 15 samples.

Results

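The 10 genes described here belong to the BCL2 family, the proteins that decide at the mitochondrion whether a cell lives or dies. They were listed by name, with earlier results of these data known. Survival genes on the list were Bcl2, Bcl2l1, Mcl1, Bcl2a1a, Bcl2a1b and Bcl2a1d, and death genes were Bax, Bcl2l11, Bmf and Bbc3. They are 10 of the 51763 genes in the count table, and all 10 were among the 16919 that passed the filter on low counts. Their RNA was measured in bone marrow-derived macrophages (BMDMs), which are grown from marrow with the growth factor M-CSF, from wild-type female C57BL/6NTac mice aged 8 to 10 weeks. The study compared how BMDMs respond to 2 redox forms of HMGB1, a nuclear protein that acts as an alarm signal once outside the cell, and to classical inflammatory stimuli. Cells were kept for 24 h with PBS as the control, with 5 µg/mL fully reduced HMGB1 (frHMGB1), with 5 µg/mL disulfide HMGB1 (dsHMGB1), with 1 µg/mL lipopolysaccharide (LPS), a bacterial wall component, or with LPS and 20 ng/mL interferon-γ (LPS/IFNγ). Of LPS in the LPS/IFNγ cultures the treatment label says 1 µg/mL and the protocol text 100 ng/mL, so a difference between LPS and LPS/IFNγ may hold a difference in LPS dose. Each condition had 3 libraries. Cells of 5 mice were pooled before seeding, so p-values measure how cultures and libraries varied and not how animals did. In RNA from whole cultures fewer cells of a type and less RNA per cell cannot be told apart.

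Survival proteins of the family hold the pore-forming proteins BAX and BAK in check. BH3-only proteins are the sensors of the family: BIM (Bcl2l11), BMF and PUMA (Bbc3) bind survival proteins and release or activate the pore formers, after which cytochrome c leaves the mitochondrion and caspases are switched on. Which survival protein a cell relies on differs between cell types. MCL1 is short-lived and needed by many blood cells, BCL-XL is made from Bcl2l1, and A1, made in mice from several Bcl2a1 genes, is known as a target of NF-κB in activated leukocytes. Protein binding and stability decide much of this balance and were not measured here.

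The Bcl2a1 genes are near copies, which limits what counts can say of each. In GRCm38 Bcl2a1d lies on the minus strand at chr9:88723285-88731914, Bcl2a1a on the plus strand at chr9:88956900-88962419 and Bcl2a1b on the plus strand at chr9:89199209-89207827. Their coding sequences (GENCODE M21) have 516 bases each, of which 504 are identical in all 3 and 12 differ. Bases 1 to 90, counted from the A of the start codon, are shown because 6 of the 12 differences are there, written in capitals.
Bcl2a1a: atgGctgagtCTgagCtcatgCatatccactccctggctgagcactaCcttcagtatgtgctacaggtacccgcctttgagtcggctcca
Bcl2a1b: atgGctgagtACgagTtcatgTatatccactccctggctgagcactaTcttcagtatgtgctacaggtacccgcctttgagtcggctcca
Bcl2a1d: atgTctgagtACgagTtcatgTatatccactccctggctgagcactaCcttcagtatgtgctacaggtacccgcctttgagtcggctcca
Against Bcl2a1b, Bcl2a1a has A11C, C12T, T16C, T22C and T48C, and Bcl2a1d has G4T and T48C. Bases 95 to 311 are the same in all 3 genes, and a read that lies inside them cannot be given to 1 gene by its own bases. Reads were sequenced in pairs, and the mate of such a read may cover a base that differs.
Shared by all 3: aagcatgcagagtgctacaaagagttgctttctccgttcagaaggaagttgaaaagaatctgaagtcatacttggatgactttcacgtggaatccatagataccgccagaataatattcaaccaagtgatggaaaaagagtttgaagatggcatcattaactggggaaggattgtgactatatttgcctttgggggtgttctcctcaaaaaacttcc
Of all 50-base windows in the exons, 69.0% in Bcl2a1a, 79.2% in Bcl2a1b and 79.5% in Bcl2a1d were also found in another gene. How such reads were counted is not stated in these sources. The 3 genes were therefore read singly and as 1 sum. Windows found in another gene made up 8.51% of Bax, 5.25% of Bcl2 and 0.135% of Bcl2l11, and none of Bcl2l1, Mcl1, Bmf and Bbc3. Annotated genes that overlap a member held few counts over the 15 libraries: none for Gm29094 in Bcl2a1b and Gm45808 in Bax, 2 for the antisense D630008O14Rik in Bcl2 (1816 for Bcl2) and 141 for the antisense Gm10634 in Bcl2a1d (270372 for Bcl2a1d). Since the counting of shared reads is unknown, few counts in an overlapping gene do not show that the member lost no reads.

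Library totals ran from 40934540 to 80925478 counts. PBS replicate 3 stood apart. Its log2 CPM values (counts scaled to library size) correlated with those of the other PBS libraries at r = 0.938 and 0.933, against 0.987 or more for every other pair of replicates, over genes that are not independent. Relative to them it held more counts of short transcripts (median log2 difference of 1.61 below 1 kb) and fewer of long ones (−1.22 above 8 kb), and 1.49% of its counts fell on processed pseudogenes against 0.481 to 0.833% elsewhere. Members of short transcripts were high in it, and results that rest on it are given with and without that library. A smaller skew of the same direction was seen in dsHMGB1 replicate 1 against the other dsHMGB1 libraries (0.35 below 1 kb and −0.43 above 8 kb). That library was the highest of dsHMGB1 for the Bcl2a1 genes and Bax. All 7 macrophage markers passed the filter, with summed levels of 21598 to 25965 CPM in PBS and 13146 to 13453 CPM in LPS/IFNγ. Most of the sum was Lyz2, with means of 18539 CPM in PBS and 9308 CPM in LPS/IFNγ. By mean CPM, Csf1r, Cd68 and Itgam were also lower in LPS/IFNγ than in PBS. Mertk (398 against 81.9) and Fcgr1 (163 against 108) were higher, and Adgre1 was nearly level (1012 against 910). The neutrophil markers Ly6g and Mpo, all 3 erythroid markers and 4 of 5 T and NK cell markers had no count. The remaining T and NK cell marker, Cd4, passed the filter at 13.5 to 35.4 CPM a library. Its mean was highest for frHMGB1 (32.4 CPM) and lowest for LPS (14.6 CPM), against 28.5 CPM for PBS. B cell markers summed to at most 0.152 CPM, mast cell markers to at most 0.281 CPM and neutrophil markers to 9.04 to 27.7 CPM, nearly all from Mmp8. All 4 fibroblast markers passed, at 111 to 266 CPM in PBS and 180 to 235 CPM in the other conditions. The dendritic cell marker Flt3 was at or near 0, and the dendritic list summed to 1.61 to 2.77 CPM in PBS and 13.01 to 14.17 CPM in LPS/IFNγ. The part of these cells in the results was not tested.

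**Figure D1:**
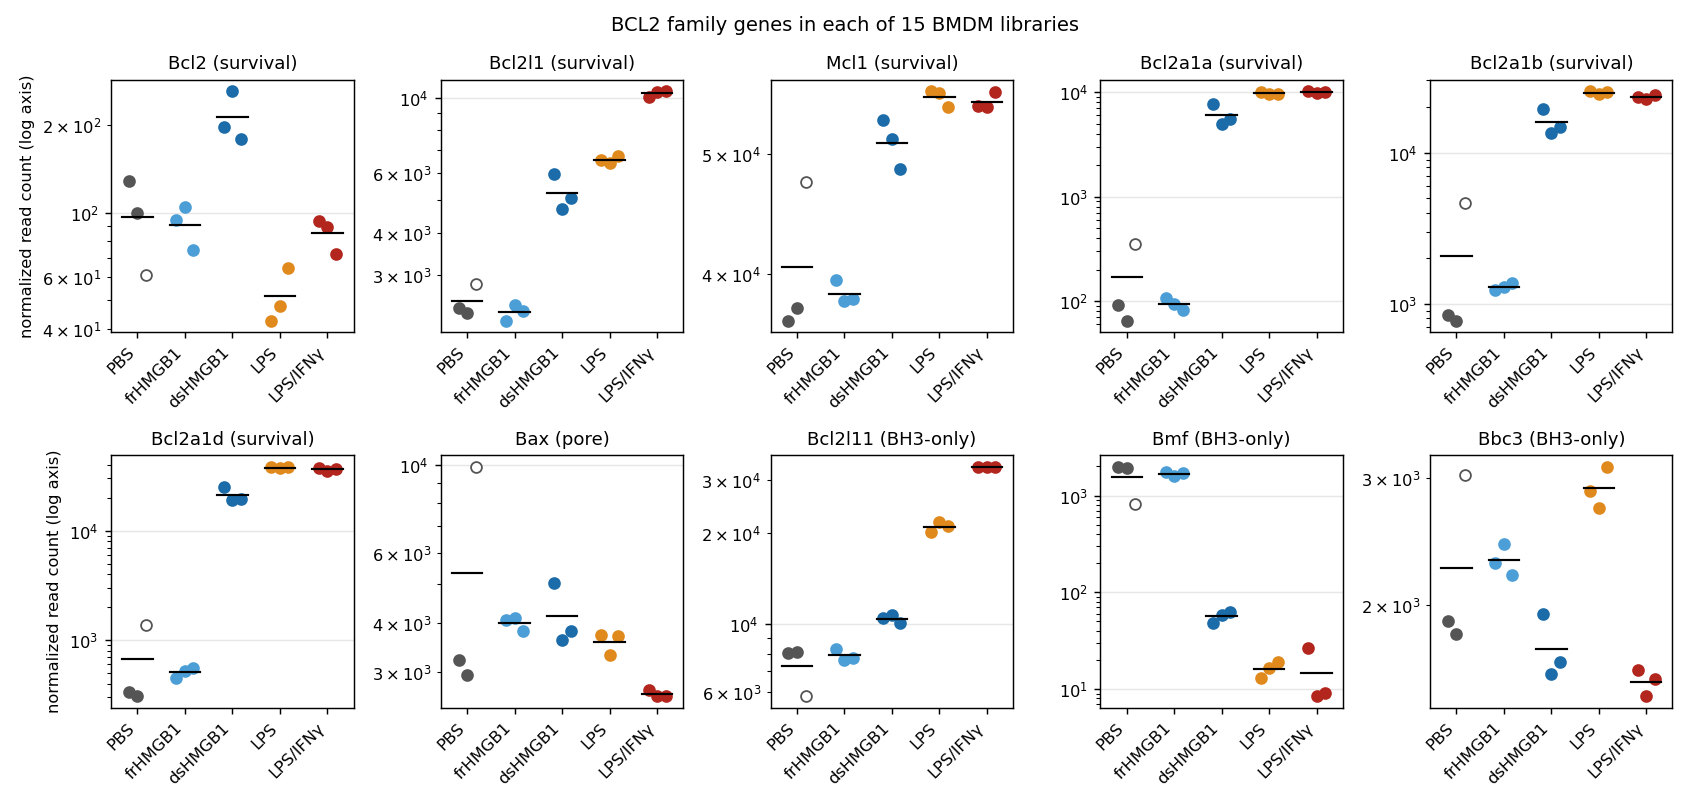
Normalized counts (log axis, scaled to each gene) of the 10 genes, with a point for each of the 3 libraries of each condition, an open point for PBS replicate 3 and a bar at the mean of the condition. The Bcl2a1 genes sit low in PBS and frHMGB1 and high in the other 3 conditions, Bmf does the opposite, and PBS replicate 3 lies apart from the other PBS libraries for the Bcl2a1 genes, Bax and Bmf.

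Set against PBS, dsHMGB1 had 7 of the 10 genes higher and 1 lower at an adjusted p under 0.05 (edgeR quasi-likelihood test, Benjamini-Hochberg adjustment over all genes), where 23.3% of all genes tested were higher and 24.2% lower. LPS had 6 higher and 2 lower (26.7% and 36.2% of all genes), and LPS/IFNγ 6 higher and 3 lower (29% and 31.2%). The share of members called higher was thus above that of all genes in each, and the share called lower was below it in dsHMGB1 and LPS and close to it in LPS/IFNγ. The near copies Bcl2a1a, Bcl2a1b and Bcl2a1d count as 3 members in these shares and in the medians below, not as 1 sum. The shares and medians are therefore raised by genes that are not independent of each other. The members were also chosen with earlier results of these data known, so an excess over all genes is no test of the family. Bcl2l1, Mcl1, Bcl2a1a, Bcl2a1b, Bcl2a1d and Bcl2l11 were called higher with all 3 stimuli, and Bmf was lower with all 3. Bcl2, Bax and Bbc3 differed in call between the stimuli. The median log2 fold change of the 10 genes was 0.78 with dsHMGB1, 0.92 with LPS and 1.24 with LPS/IFNγ, against −0.10, −0.21 and −0.13 over all genes tested. Log2 fold changes are from DESeq2, with the standard error (SE) after ±, and folds are ratios of mean normalized counts. With PBS replicate 3 left out, dsHMGB1 had 8 higher and 1 lower (29.8% and 29% of all genes), LPS 7 and 2 (32.9% and 38.3%) and LPS/IFNγ 6 and 3 (33.3% and 34.4%). With each pair of conditions fitted alone, 4 were higher with dsHMGB1 (15.7% of all genes in that fit), since Bcl2, Mcl1 and Bcl2l11 no longer passed.

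**Figure D2:**
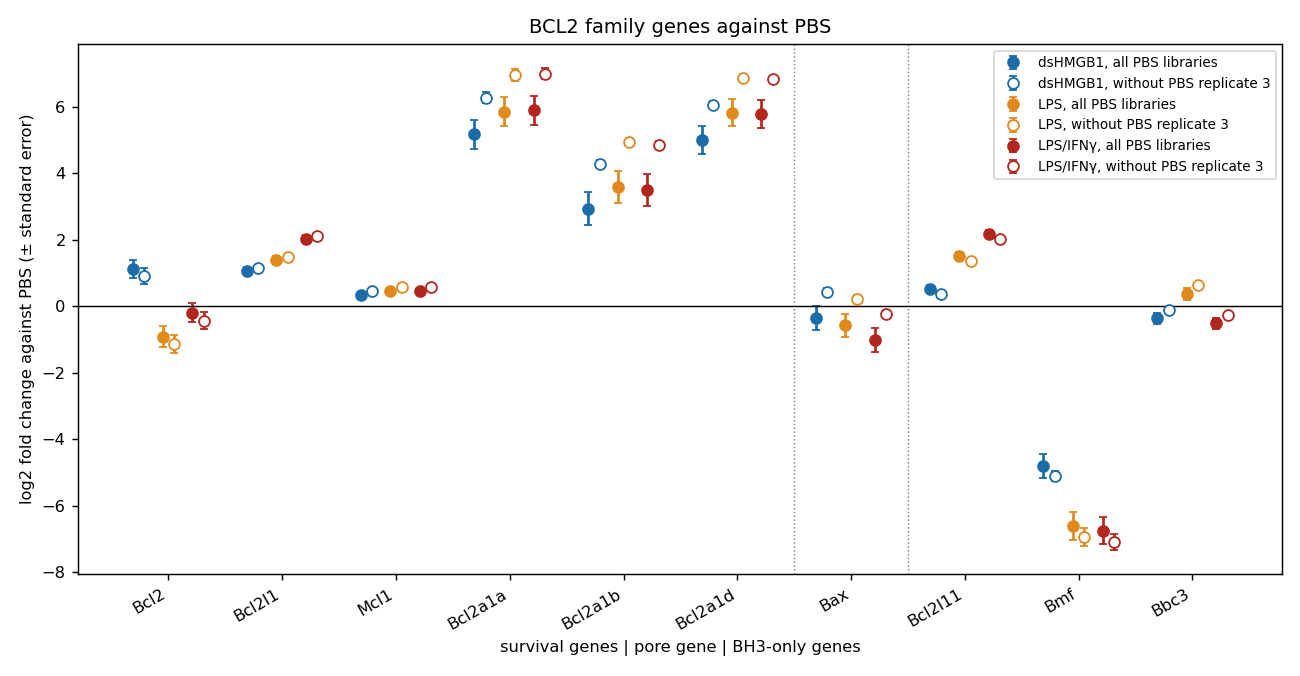
Log2 fold change over PBS (DESeq2, with bars of 1 SE) for each gene with dsHMGB1, LPS and LPS/IFNγ, with all libraries (filled points) and without PBS replicate 3 (open points). The Bcl2a1 genes lie near 3 to 7 with dsHMGB1, LPS and LPS/IFNγ and Bmf near −5 to −7, while Bax moves across 0 with dsHMGB1 when PBS replicate 3 is left out.

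The Bcl2a1 genes had the largest rise among the members. Summed over the 3 genes, dsHMGB1 raised them 14.8-fold, LPS 24.8-fold and LPS/IFNγ 23.9-fold over PBS. The normalized count of the sum was 1273, 1146 and 6333 in PBS and 1793, 1921 and 2005 in frHMGB1. It was 52358, 37283 and 39843 in dsHMGB1, 73745, 70859.5 and 72643 in LPS and 71185, 67222 and 71110.2 in LPS/IFNγ. Every library of the 3 stimuli lay above every PBS and frHMGB1 library, the dsHMGB1 libraries lay below all LPS and LPS/IFNγ libraries, and PBS replicate 3 was the highest of the 6 unstimulated and frHMGB1 libraries. Means (± SD, n = 3) were 2917 ± 2959 for PBS and 1906 ± 106 for frHMGB1, and 43161 ± 8067, 72416 ± 1456 and 69839 ± 2267 for dsHMGB1, LPS and LPS/IFNγ. The log2 fold changes over PBS were 3.89 ± 0.47, 4.64 ± 0.47 and 4.58 ± 0.47 (adjusted p = 2.64e-05, 4.45e-06 and 4.60e-06). Leaving out PBS replicate 3 gave 5.15 ± 0.11, 5.90 ± 0.11 and 5.84 ± 0.11, or 35.7-, 59.9- and 57.7-fold. Against frHMGB1, a comparison of levels free of that library, the sum with dsHMGB1 differed by 4.50 ± 0.47 (adjusted p = 9.51e-06).

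Singly, the 3 genes rose with each stimulus and from unequal starting levels. Among these genes of nearly equal length (817 to 863 bases of exons), Bcl2a1b had the highest PBS counts at 845, 774 and 4614, against 336, 307 and 1364 for Bcl2a1d and 91.8, 65.0 and 354 for Bcl2a1a. In frHMGB1 Bcl2a1b was at 1232, 1300.3 and 1367, Bcl2a1d at 454, 526 and 555 and Bcl2a1a at 107, 94.0 and 82.0. PBS replicate 3 was the highest PBS library for all 3, and their PBS and frHMGB1 ranges overlapped. With dsHMGB1 the counts were 19484, 13418 and 14723 for Bcl2a1b, 25192, 18891 and 19600.2 for Bcl2a1d and 7682, 4974 and 5519.6 for Bcl2a1a. With LPS they were 25474, 24267 and 25076, 38233, 37037 and 37942 and 10039, 9556 and 9624 for the same genes. With LPS/IFNγ they were 23312, 22478 and 24081, 37646, 34969.7 and 36924 and 10227, 9774 and 10105. All libraries of the 3 stimuli lay above all PBS libraries for each gene. Bcl2a1b rose by 2.93 ± 0.49, 3.59 ± 0.49 and 3.49 ± 0.49 with dsHMGB1, LPS and LPS/IFNγ on the log2 scale (adjusted p = 3.10e-04, 5.07e-05 and 5.54e-05). Bcl2a1d rose by 4.99 ± 0.42, 5.82 ± 0.42 and 5.77 ± 0.42 (adjusted p = 9.41e-07, 1.90e-07 and 1.79e-07). Bcl2a1a rose by 5.16 ± 0.44, 5.85 ± 0.44 and 5.89 ± 0.44 (adjusted p = 1.11e-06, 2.80e-07 and 2.35e-07). Of the 3, Bcl2a1b had the smallest log2 fold change with each stimulus. The values without PBS replicate 3, in the same order of stimuli, were 4.29, 4.94 and 4.84 for Bcl2a1b. They were 6.04, 6.87 and 6.82 for Bcl2a1d, and 6.27, 6.95 and 6.99 for Bcl2a1a.

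The make-up of the Bcl2a1 counts shifted with them. Bcl2a1b took 66.4 to 72.9% of the raw counts of the 3 genes in PBS and 67.7 to 68.7% in frHMGB1, and Bcl2a1d 21.5 to 26.8% and 25.3 to 27.7%. With dsHMGB1 Bcl2a1d was the largest at 48.1 to 50.7%, ahead of Bcl2a1b at 36.0 to 37.2%. In LPS and LPS/IFNγ Bcl2a1d took 51.8 to 52.9% and Bcl2a1b 32.7 to 34.5%. Bcl2a1a went from 5.59 to 7.22% in PBS to 13.2 to 14.7% in the 3 stimuli. The shares are of counts as the study's counting assigned them, and a share misplaced between the near copies was not measured.

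The promoters of the 3 genes are also copies of each other. In RefSeq (GRCm38.p6) the 250 bases before the start of Bcl2a1a and Bcl2a1d were 95.2% identical, and over 206 aligned bases Bcl2a1b was 96.1% identical to Bcl2a1d and 99.5% to Bcl2a1a. The Bcl2a1a window, chr9:88956670-88956919 on the plus strand, is shown as the example, with a PU.1 core (GAGGAAGT) in capitals. PU.1 is a factor that marks myeloid cells, and the last bases of this window fall within the first exon as GENCODE has it.
Bcl2a1a promoter: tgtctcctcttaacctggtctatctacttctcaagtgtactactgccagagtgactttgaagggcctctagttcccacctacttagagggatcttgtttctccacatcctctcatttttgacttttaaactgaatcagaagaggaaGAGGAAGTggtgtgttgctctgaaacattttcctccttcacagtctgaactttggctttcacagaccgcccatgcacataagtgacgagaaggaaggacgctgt
Counted from the RefSeq start, the PU.1 core began at −104 in Bcl2a1a and Bcl2a1d and at −148 in Bcl2a1b. The windows of all 3 genes reach into the gene as GENCODE has it, so these offsets depend on the start used. Of all 32851 promoter windows, 2.44% hold the core on either strand. An AP-1 match (TGANTCA, 6.75% of windows) lay just upstream of it in each, at −120, −114 and −164, without overlap. Neither the core of the interferon-stimulated response element (2.98%) nor the 10-base NF-κB motif (3.90%) was found in these windows, which says nothing of sites elsewhere. Among the other members, a window of Bcl2l1 and 1 of Bbc3 held an NF-κB match, windows of Bcl2l11 and Bbc3 held a FOXO match (GTAAACA, 3.17%), and windows of Bax and Bmf held a p53 half-site (7.13%). These are matches of letters and no measure of binding.

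Mcl1 rose little, while Bcl2l1 rose with all 3 stimuli, most with LPS/IFNγ. Mcl1 (plus strand, chr3:95658788-95663176) was at 36651, 37489 and 47433 in PBS and at 39527, 37981 and 38135 in frHMGB1. It was at 53241, 51379 and 48606 in dsHMGB1, at 56212, 55974 and 54578 in LPS and at 54645, 54567 and 56124 in LPS/IFNγ. All libraries of the 3 stimuli lay above all PBS libraries, of which replicate 3 was the highest. The folds were 1.26, 1.37 and 1.36 with dsHMGB1, LPS and LPS/IFNγ, or 0.33 ± 0.10, 0.46 ± 0.10 and 0.44 ± 0.10 on the log2 scale (adjusted p = 0.00497, 9.10e-04 and 5.75e-04). Bcl2l1 (minus strand, chr2:152780668-152831728) was at 2402, 2313 and 2829.7 in PBS and at 2199.7, 2441 and 2349.9 in frHMGB1. It was at 5959, 4696 and 5042 in dsHMGB1, at 6561, 6416 and 6717 in LPS and at 10049, 10381 and 10439 in LPS/IFNγ. No stimulated library overlapped PBS, and the dsHMGB1, LPS and LPS/IFNγ ranges did not overlap each other. The folds over PBS were 2.08, 2.61 and 4.09, or 1.06 ± 0.11, 1.39 ± 0.11 and 2.03 ± 0.11 on the log2 scale (adjusted p = 1.01e-06, 6.10e-08 and 9.47e-10).

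Bcl2, the founding survival gene of the family, moved in opposite directions with the stimuli: it was higher than PBS with dsHMGB1 and lower with LPS. Its counts (minus strand, chr1:106538178-106714274) were 128, 99.7 and 61.0 in PBS and 94.1, 104 and 74.4 in frHMGB1. They were 197, 260.4 and 178 in dsHMGB1, 42.6, 47.8 and 64.7 in LPS and 93.3, 89.4 and 72.2 in LPS/IFNγ. The dsHMGB1 libraries lay above all other libraries, while an LPS library overlapped PBS replicate 3, the lowest of the PBS libraries. Bcl2 rose by 1.12 ± 0.28 with dsHMGB1 (adjusted p = 0.00468) and fell by 0.92 ± 0.30 with LPS (adjusted p = 0.00992), and with LPS/IFNγ the log2 difference was −0.20 ± 0.29 (adjusted p = 0.492). Tested directly, dsHMGB1 was above LPS by 2.04 ± 0.30 (adjusted p = 1.64e-04) and above LPS/IFNγ by 1.32 ± 0.28 (adjusted p = 0.00214). The call of LPS lower than PBS was lost when PBS replicate 1 or LPS replicate 1 was left out. Without PBS replicate 3 the values over PBS were 0.89 ± 0.24 with dsHMGB1 and −1.15 ± 0.27 with LPS, both still called. That with LPS/IFNγ was −0.43 ± 0.25 (adjusted p = 0.0578), not called. In that fit LPS/IFNγ was called above LPS, by 0.72 ± 0.26 (adjusted p = 0.0183).

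Per length of merged exons, which allows genes to be set side by side, the leading survival transcript changed from Mcl1 to the Bcl2a1 genes. In PBS Mcl1 had 11856 normalized counts per kb, Bcl2a1b 2543, Bcl2a1d 775, Bcl2l1 548, Bcl2a1a 208 and Bcl2 10.5. In dsHMGB1 Bcl2a1d had 24598, Bcl2a1b 19431, Mcl1 14943 and Bcl2a1a 7398. In LPS Bcl2a1d had 43728, Bcl2a1b 30525 and Mcl1 16263, and in LPS/IFNγ 42309.8, 28507 and 16124. Bcl2a1d and Bcl2a1b thus stood above Mcl1 with all 3 stimuli. Mcl1 gave 62.6 to 85.2% of the survival transcripts per kb in PBS, with PBS replicate 3 at the low end, 79.2 to 81.3% in frHMGB1 and 19.6 to 24.9% in dsHMGB1. In LPS it gave 15.4 to 16.0% and in LPS/IFNγ 15.5 to 16.3%. The Bcl2a1 genes together gave 10.7 to 34.6% in PBS and 15.2 to 17.2% in frHMGB1, and 73.4 to 78.7%, 82.6 to 83.2% and 81.4 to 82.3% with dsHMGB1, LPS and LPS/IFNγ. Summed over the 6 survival genes, the level was 12796 to 22163 normalized counts per kb in PBS and 13972 to 14219 in frHMGB1, against 60471 to 79317 with dsHMGB1 and 98206 to 105620 with LPS or LPS/IFNγ.

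**Figure D3:**
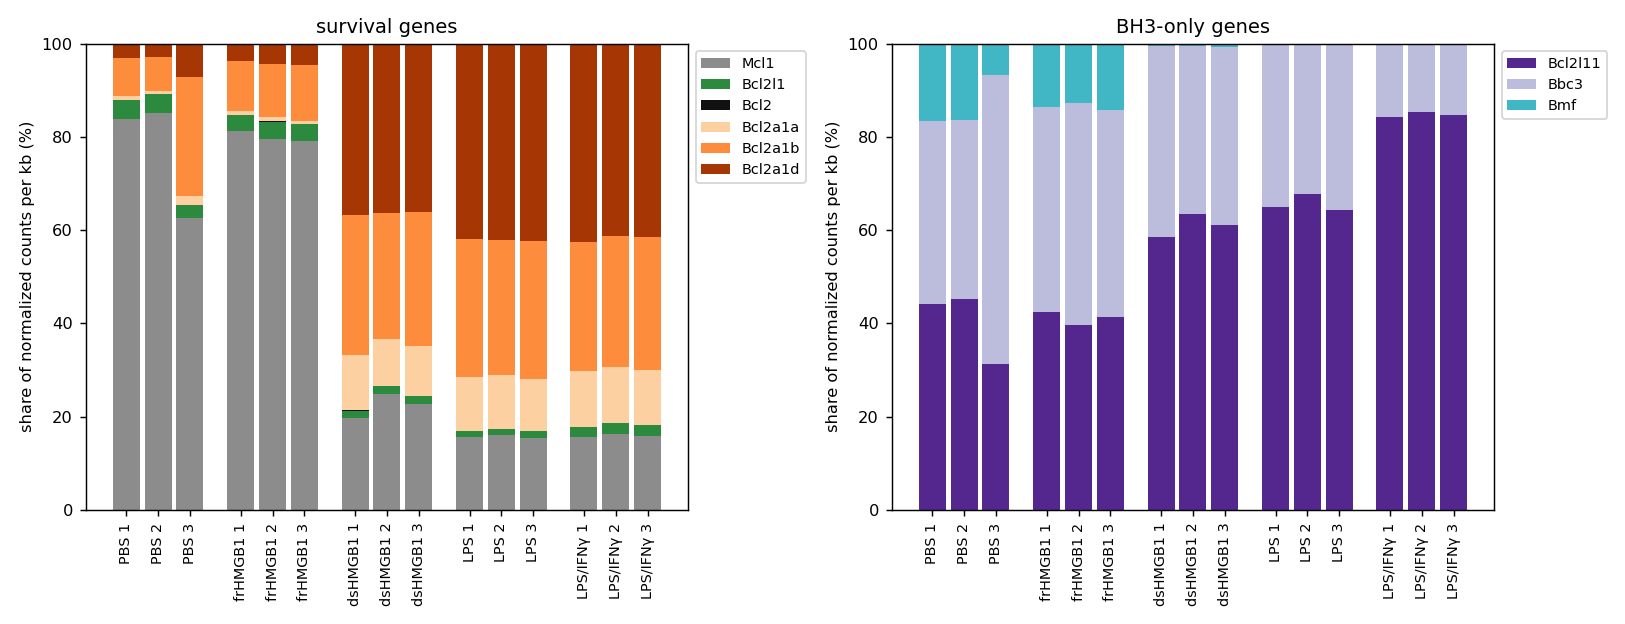
Share of each gene (percent, per kb of merged exons) in the summed level of the 6 survival genes and of the 3 BH3-only genes, 1 bar a library. Mcl1 fills most of the survival bars in PBS and frHMGB1 and 24.9% or less in the other conditions, and among the BH3-only genes Bcl2l11 grows to 84.3 to 85.4% in LPS/IFNγ.

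The BH3-only genes split: Bcl2l11 rose with all 3 stimuli, Bmf was nearly lost and Bbc3 moved little. Bcl2l11 (plus strand, chr2:128126038-128162547) codes for BIM, a strong binder of all survival proteins. Its counts were 8041, 8114 and 5789 in PBS and 8307, 7634 and 7745 in frHMGB1. They were 10485, 10734 and 10078 in dsHMGB1, 20173, 21713 and 21179 in LPS and 33041, 33088 and 33126 in LPS/IFNγ. The 3 stimuli did not overlap each other or PBS, and PBS replicate 3 was the lowest library. The rise over PBS was 1.43-fold with dsHMGB1, 2.87-fold with LPS and 4.52-fold with LPS/IFNγ, or 0.51 ± 0.12, 1.52 ± 0.12 and 2.18 ± 0.12 on the log2 scale (adjusted p = 0.00591, 4.22e-07 and 9.03e-09). Without PBS replicate 3 the values were 0.37, 1.37 and 2.02.

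Bmf (minus strand, chr2:118528757-118549687), a BH3-only gene linked to cell detachment and stress, showed the largest fall of the set. It was at 1977, 1923 and 815 in PBS and at 1742, 1602 and 1724 in frHMGB1. It was at 48.0, 58.0 and 63.0 in dsHMGB1, at 12.9, 16.4 and 19.1 in LPS and at 26.5, 8.42 and 9.14 in LPS/IFNγ. No stimulated library came near a PBS library, and the dsHMGB1 libraries lay above all LPS and LPS/IFNγ libraries. The mean was 27.9-fold lower than in PBS with dsHMGB1, 97.3-fold lower with LPS and 107-fold lower with LPS/IFNγ, from raw counts of 8 to 3058 a library. The log2 fold changes were −4.80 ± 0.36, −6.61 ± 0.42 and −6.76 ± 0.41 (adjusted p = 2.35e-07, 2.58e-08 and 1.76e-08), and −5.11, −6.94 and −7.09 without PBS replicate 3, the lowest PBS library.

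Bbc3 (plus strand, chr7:16308393-16318205) codes for PUMA, best known as a target of p53. It was at 1897, 1819 and 3026 in PBS and at 2284, 2431 and 2199 in frHMGB1. It was at 1939, 1603 and 1664 in dsHMGB1, at 2877, 2719 and 3105 in LPS and at 1622, 1492 and 1576 in LPS/IFNγ. The LPS libraries overlapped PBS through PBS replicate 3, the highest PBS library, and lay above all dsHMGB1 and LPS/IFNγ libraries. Against PBS, Bbc3 fell by 0.52 ± 0.18 with LPS/IFNγ (adjusted p = 0.00651). The difference was −0.37 ± 0.18 with dsHMGB1 (adjusted p = 0.0541) and 0.37 ± 0.18 with LPS (adjusted p = 0.0732). Neither passed. Without PBS replicate 3 the LPS difference was 0.63 (adjusted p = 7.22e-06), called higher. The LPS/IFNγ difference was then smaller, at −0.26 ± 0.09 (adjusted p = 0.00254), and still called lower. That with dsHMGB1 was −0.10 ± 0.09 (adjusted p = 0.183) and not called.

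Per kb, Bcl2l11 gave 31.3 to 45.3% of the BH3-only transcripts in PBS and 39.6 to 42.4% in frHMGB1, and 58.6 to 63.6%, 64.3 to 67.8% and 84.3 to 85.4% with dsHMGB1, LPS and LPS/IFNγ. Bmf went from 6.75 to 16.6% in PBS to 0.410 to 0.585% in dsHMGB1 and at most 0.103% in LPS and LPS/IFNγ. Summed over the 3 BH3-only genes, the level per kb was 2233 to 2301 in PBS and 2051 to 2228 in dsHMGB1, against 3869 to 4103 in LPS and 4825 to 4884 in LPS/IFNγ. With the length of the longest coding transcript in place of merged exons, PBS was at 2993 to 3068 and dsHMGB1 at 2932 to 3161, so the order of these 2 depended on the length used, while LPS (5594 to 5921) and LPS/IFNγ (7394 to 7461) stayed above both. The sum of the survival genes did not depend on it in this way, at 13211 to 22649 in PBS and 61284 to 80344 in dsHMGB1.

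Bax, the pore-forming member (minus strand, chr7:45461697-45466898), depended on a single library. Its counts were 3210.4, 2941 and 9891 in PBS and 4069, 4104 and 3804 in frHMGB1. They were 5038, 3609.9 and 3817 in dsHMGB1, 3719, 3314 and 3695 in LPS and 2708, 2606 and 2618 in LPS/IFNγ. PBS replicate 3 lay above all 14 other libraries, and the LPS/IFNγ libraries lay below all others. With all libraries Bax fell by 1.02 ± 0.35 with LPS/IFNγ (adjusted p = 0.0164), and the difference was −0.36 ± 0.35 with dsHMGB1 (adjusted p = 0.405) and −0.58 ± 0.35 with LPS (adjusted p = 0.117). Without PBS replicate 3 the LPS/IFNγ value was −0.23 ± 0.11 (adjusted p = 0.022), the LPS value was 0.21 (adjusted p = 0.186), and dsHMGB1 was called higher than PBS by 0.43 ± 0.11 (adjusted p = 0.00351).

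Across the members, the gap between PBS replicate 3 and the other PBS libraries changed sign with transcript length, though not in strict order of length. This gap was positive for transcripts of up to 3418 bases (Mcl1) and negative from 4642 bases (Bmf). It was 2.51, 2.18 and 2.08 on the log2 scale for Bcl2a1b, Bcl2a1a and Bcl2a1d and 1.69 for Bax, the shortest transcripts. It was 0.70 for Bbc3, 0.36 for Mcl1 and 0.26 for Bcl2l1. It was −0.48 for Bcl2l11, −0.88 for Bcl2 and −1.26 for Bmf, which are long. The part of transcript length in the PBS values of single members was not tested.

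**Figure D4:**
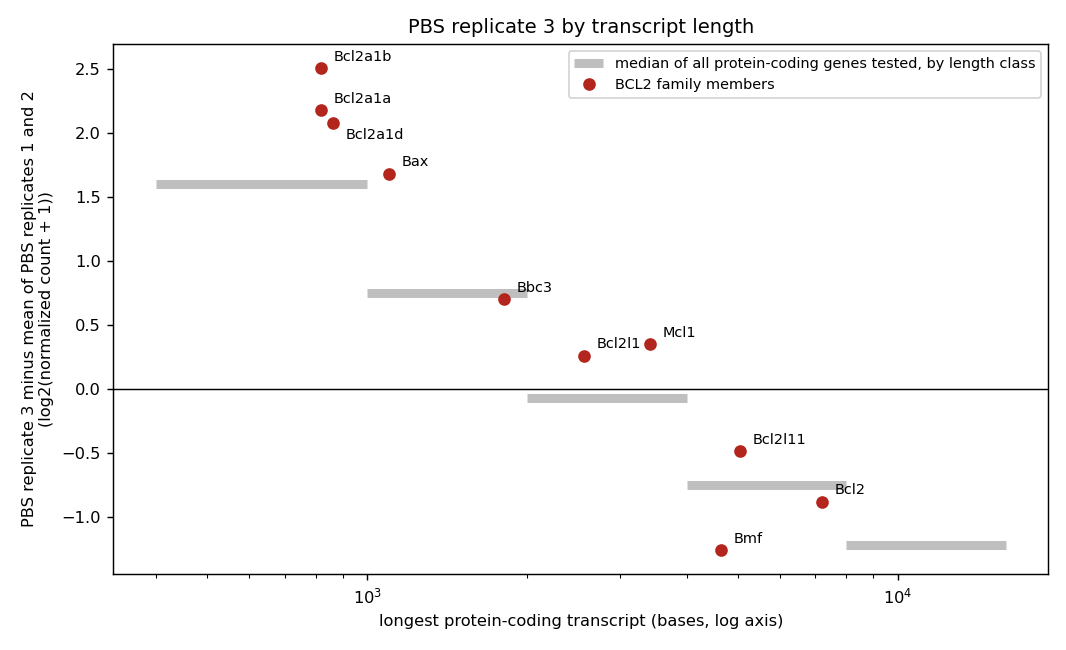
Difference in log2(normalized count + 1) between PBS replicate 3 and the mean of the other PBS libraries (y axis) against the bases of the longest protein-coding transcript (log x axis), with the 10 genes as labelled points and the median of all protein-coding genes tested in each length class as a grey bar. The Bcl2a1 genes and Bax lie above 1.6 at the short end, and Bmf, Bcl2 and Bcl2l11 lie below 0 at the long end.

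frHMGB1 changed no member that the test could call. None of the 10 passed against PBS with edgeR and none with DESeq2. By edgeR 1.31% of all genes were higher and 5.69% lower (0.315% and 0.223% among protein-coding genes fitted alone). None of the 10 had an unadjusted p under 0.05 with edgeR, against 2745 of all 16919 genes tested. After leaving out PBS replicate 3, 4 members were called higher with frHMGB1 (8.41% of all genes higher, 9.09% lower), namely Bcl2a1b, Bcl2a1d, Bax and Bbc3. Their log2 differences were then 0.69 ± 0.12 for Bcl2a1b, 0.68 ± 0.12 for Bcl2a1d, 0.38 ± 0.11 for Bax and 0.31 ± 0.09 for Bbc3 (adjusted p = 4.77e-04, 6.24e-04, 0.0225 and 0.0178). All 4 are genes in which PBS replicate 3 was the highest PBS library, and the frHMGB1 libraries lay above both other PBS libraries. The redox forms of HMGB1 differed from each other in 9 members: dsHMGB1 was above frHMGB1 in 7 and below it in 2. Of all genes, 27.7% were above and 23.1% below (35.8% and 32.9% without PBS replicate 3, again with 7 and 2 members). By the paper's methods, frHMGB1 was made in buffers with the reducing agent DTT. The dsHMGB1 protein was a gift from another laboratory, made without DTT. Redox form and protein preparation therefore cannot be told apart in this comparison. Bcl2l1 was higher with dsHMGB1 by 1.17 ± 0.11 (adjusted p = 4.58e-07), Bcl2 by 1.22 ± 0.28 (adjusted p = 0.00282) and Mcl1 by 0.41 ± 0.10 (adjusted p = 0.00181). Bmf was lower by 4.91 ± 0.36 in log2 units (adjusted p = 2.06e-07). The calls for Bcl2l11 (0.40 ± 0.12, adjusted p = 0.0251) and Bbc3 (−0.41 ± 0.18, adjusted p = 0.0246) were lost when any of 4 single libraries was left out.

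Direct tests called 4 members between dsHMGB1 and LPS and 4 between dsHMGB1 and LPS/IFNγ. With 2 of 10 higher and 2 of 10 lower in each, these counts lay near the shares of all genes. Against LPS, Bcl2 and Bmf were higher with dsHMGB1 and Bcl2l11 and Bbc3 lower (15.8% of all genes higher, 10.6% lower). Bmf was higher by 1.81 ± 0.43 (adjusted p = 0.00806), from low counts in both. Bcl2l11 was lower by 1.01 ± 0.12 in log2 units (adjusted p = 1.13e-04) and Bbc3 by 0.74 ± 0.18 (adjusted p = 0.00353). Against LPS/IFNγ, Bcl2 and Bmf were again higher, and Bcl2l1 and Bcl2l11 were lower (16.5% of all genes higher, 16.7% lower), Bcl2l1 with −0.98 ± 0.11 (adjusted p = 5.11e-06) and Bcl2l11 with −1.67 ± 0.12 (adjusted p = 5.20e-07). LPS/IFNγ was above LPS in Bcl2l1 (0.65 ± 0.11, adjusted p = 1.55e-04) and Bcl2l11 (0.65 ± 0.12, adjusted p = 0.00127) and below it in Bbc3 (−0.89 ± 0.18, adjusted p = 7.63e-04), where 16.3% of all genes were above and 9.36% below. The LPS dose in the LPS/IFNγ cultures and IFNγ cannot be told apart in that contrast if the protocol text holds.

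The Bcl2a1 sum was lower with dsHMGB1 than with LPS by 0.75 ± 0.47 in log2 units (adjusted p = 0.284) and than with LPS/IFNγ by 0.69 ± 0.47 (adjusted p = 0.308), which did not pass, although the libraries did not overlap. The spread in this test is shared by all conditions and includes PBS replicate 3. With that library left out, the difference from LPS was −0.74 ± 0.10 (adjusted p = 3.12e-06) and that from LPS/IFNγ −0.69 ± 0.10 (adjusted p = 6.41e-06), both called. Bcl2l1 between dsHMGB1 and LPS behaved likewise, at −0.33 ± 0.11 (adjusted p = 0.0521) with all libraries and −0.32 (adjusted p = 0.0019) without it. In the fit without it, dsHMGB1 was above LPS in 3 members and below it in 6 (25.6% and 23.3% of all genes), and above LPS/IFNγ in 4 and below it in 5 (27.9% and 25.4%), while LPS/IFNγ was above LPS in 3 and below it in 2 (25.1% and 24.3%). LPS/IFNγ and LPS did not differ detectably in the sum (−0.05 ± 0.47, adjusted p = 0.94).

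In order of the means, the 5 conditions ranked LPS/IFNγ, LPS, dsHMGB1, PBS, frHMGB1 for Bcl2l1, where the step from LPS to dsHMGB1 and that from PBS to frHMGB1 did not pass. For Bcl2l11 the order was LPS/IFNγ, LPS, dsHMGB1, frHMGB1, PBS, and each step but the last passed. For Bmf it was frHMGB1, PBS, dsHMGB1, LPS, LPS/IFNγ, with the step from PBS to dsHMGB1 and that from dsHMGB1 to LPS past the threshold. For the Bcl2a1 sum LPS, LPS/IFNγ and dsHMGB1 did not differ between neighbours and all stood above PBS and frHMGB1. For Bcl2 dsHMGB1 stood above the rest, and PBS, frHMGB1, LPS/IFNγ and LPS did not differ between neighbours with all libraries. The step from LPS/IFNγ to LPS passed for Bcl2 without PBS replicate 3. For Mcl1 the step from dsHMGB1 to PBS was the only one past the threshold. For Bax and Bbc3 no step between neighbours passed with all libraries.

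Of 16 other genes of the family, 12 passed the filter, and against PBS they moved in both directions, 4 higher and 4 lower with dsHMGB1, 5 and 4 with LPS, and 5 and 4 with LPS/IFNγ. Their median log2 fold changes were −0.10, −0.03 and 0.10. Of all genes tested, 23.3% were higher and 24.2% lower with dsHMGB1, 26.7% and 36.2% with LPS, and 29% and 31.2% with LPS/IFNγ. The medians of all genes were −0.10, −0.21 and −0.13, and these values are the background for the lists that follow too. Bak1, the other pore former, rose by 0.94 ± 0.12, 1.32 ± 0.12 and 1.18 ± 0.12 (adjusted p = 4.52e-06, 1.33e-07 and 3.02e-07). Pmaip1 codes for NOXA, the BH3-only protein that binds MCL1 and A1. It fell by 0.46 ± 0.12 with dsHMGB1 and by 0.59 ± 0.12 with LPS and rose by 2.40 ± 0.11 with LPS/IFNγ (adjusted p = 0.00562, 4.24e-04 and 1.73e-09). LPS/IFNγ was above LPS by 2.99 ± 0.12 (adjusted p = 5.45e-09), with counts of 3802, 3803 and 3771 against 514, 509 and 407. Bad, a BH3-only gene tied to growth factor signals, fell by 1.41 ± 0.30 with LPS/IFNγ (adjusted p = 4.48e-04), while its values with dsHMGB1 (−0.47) and LPS (−0.46) did not pass. Leaving out PBS replicate 3 changed these Bad values to −0.83, which was still called, and 0.12 and 0.13, which were not. Bcl2a1c, another copy of the Bcl2a1 genes that is named here after its values were seen, had 1 to 215 raw counts a library, and part of its sequence is shared with the 3 members. Bcl2l10 had no count, and Bik, Hrk and Bcl2l15 did not pass the filter.

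**Figure D5:**
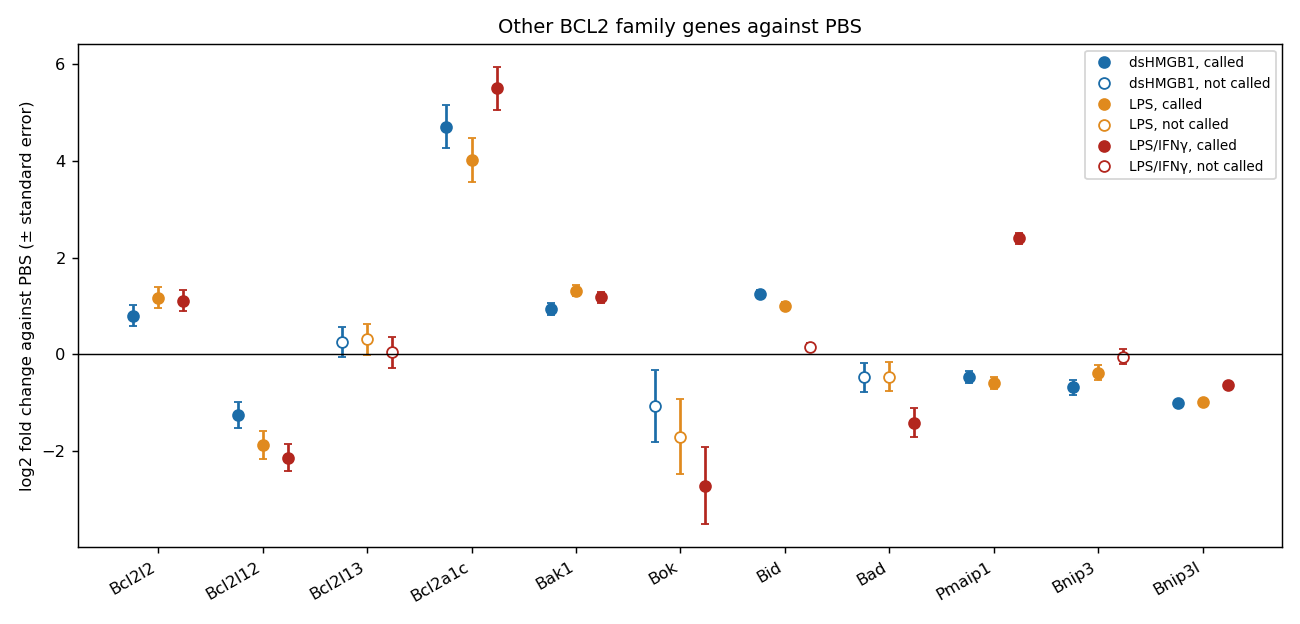
Log2 fold change over PBS (DESeq2, bars of 1 SE) of 11 other BCL2 family genes that passed the filter, for dsHMGB1, LPS and LPS/IFNγ, with filled points where the call passed. Pmaip1 lies below 0 with dsHMGB1 and LPS and at 2.40 with LPS/IFNγ, and Bak1 lies near 1 with all 3 stimuli. Bcl2l14, near 0 counts in PBS, is left out.

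Downstream of the pore lie the apoptosome, the caspases and their inhibitors, and all 17 genes of that list passed the filter. With dsHMGB1 7 were higher and 6 lower, with LPS 10 and 5, and with LPS/IFNγ 10 and 7 (medians 0.45, 0.72 and 1.07). With frHMGB1 1 was higher, Htra2, which counters caspase inhibitors (0.46 ± 0.12, adjusted p = 0.0367), where 1.31% of all genes were higher. Cflar, which codes for the caspase-8 inhibitor c-FLIP, rose most, by 4.30 ± 0.22, 5.12 ± 0.22 and 5.36 ± 0.22 (adjusted p = 9.78e-09, 1.52e-09 and 9.41e-10). Birc3, which codes for cIAP2, rose by 2.77 ± 0.14, 3.13 ± 0.14 and 3.09 ± 0.14 (adjusted p = 5.43e-09, 1.18e-09 and 1.12e-09).

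Of 14 genes of p53 and its targets, 13 passed the filter, with 8 higher and 4 lower with dsHMGB1, 8 and 5 with LPS, and 8 and 4 with LPS/IFNγ (medians 0.59, 0.74 and 0.90). Cdkn1a, the cell cycle inhibitor p21, rose by 5.27 ± 0.08, 5.44 ± 0.08 and 5.24 ± 0.08 (adjusted p = 1.29e-13, 6.72e-14 and 7.36e-14). The death receptor gene Fas rose by 3.56 ± 0.24, 3.61 ± 0.24 and 4.15 ± 0.24 (adjusted p = 2.59e-08, 1.58e-08 and 4.00e-09). Sesn1, a stress gene that restrains growth signals, had −2.94 ± 0.17, −5.38 ± 0.18 and −5.43 ± 0.18 and was called lower in each (adjusted p = 1.30e-08, 5.78e-11 and 5.10e-11). Bax and Bbc3, the members known as p53 targets, were not called higher in any of these comparisons with all libraries.

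Among 10 genes known to regulate BH3-only genes or MCL1, 3 were higher and 4 lower with dsHMGB1, 3 and 3 with LPS, and 4 and 2 with LPS/IFNγ (medians 0.48, 0.71 and 0.67). Foxo3, a transcription factor known to switch on Bcl2l11 and Bbc3, had −2.69 ± 0.13, −4.09 ± 0.13 and −4.00 ± 0.13 and was called lower in each (adjusted p = 2.49e-09, 4.15e-11 and 4.62e-11). Trib3, a stress-induced pseudokinase, rose by 3.10 ± 0.17, 3.71 ± 0.17 and 3.69 ± 0.17 (adjusted p = 2.76e-09, 3.73e-10 and 3.44e-10). Hif1a, the oxygen-sensing factor, rose by 1.82 ± 0.32, 2.41 ± 0.32 and 3.66 ± 0.32 (adjusted p = 6.54e-04, 5.23e-05 and 1.21e-06). The 4 lists hold genes known from earlier work on apoptosis, and nothing is read from their counts beyond the values given.

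Genes whose pattern over the 15 libraries was most like that of a member were ranked by Pearson's r of log2(normalized count + 1) among 10092 genes, as a description. Libraries of 1 condition share their treatment, so the 15 points are not independent. Nearest to the Bcl2a1 sum were Sap30 (r = 0.999), Slfn2 (0.998), Cxcl16 (0.998), Rfc3 (0.997) and Pla2g16 (0.997). Nearest to Bcl2, which was highest with dsHMGB1 and lowest with LPS, were Bcr (0.958), Top3a (0.892), Polr1a (0.882), Gclm (0.882) and Sh3tc1 (0.867). Nearest to Bbc3 were Il10rb (0.971), Ctsl (0.953) and the short ribosomal protein transcripts Rpl31 (0.932), Rps27a (0.931) and Rps29 (0.923). The r values for Bcl2 and Bbc3 were below those for the Bcl2a1 sum.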

How the data were processed

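RNA of 15 BMDM cultures, 3 for each of 5 conditions, was sequenced by the authors as stranded mRNA libraries on a NextSeq 2000. CASAVA, STAR and the build GRCm38 are named in the submitters' processing notes and the methods. For the counting program, its annotation and its strand setting, nothing is given in the sources used here. The deposited file holds raw counts per Ensembl gene, as the authors made them, with no normalization. Its columns were matched to samples by title, and 0 columns had no sample. Culture before seeding lasted 8 to 9 days by the methods and 10 days by the labels.

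Of 51763 identifiers, 51661 were named through GENCODE M21. Counts were tested with edgeR 4.0.16 (R 4.3.3; TMM, filterByExpr with minimum counts of 10 and 15 in total, glmQLFit and glmQLFTest) over all 15 libraries and 16919 genes, with Benjamini-Hochberg adjustment and a threshold of 0.05. DESeq2 1.42.0, without shrinkage, gave the normalized counts, the fold changes and the SE. The edgeR script was tested on simulated data. Members and lists were chosen with earlier results of these data known. In each list, the 3 called genes with a mean count of at least 100 and the largest change over PBS are named, except 1 that is not reported here. Htra2 and Bcl2l14 were named after their values were seen. Per-length levels used merged exons. Promoters are from RefSeq (GRCm38.p6). A protein table was not used here. Tried as alternatives were DESeq2, RLE scaling, 2 filters, protein-coding genes only, pairs alone, blocking by replicate number and dropping each library.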

Additional observations from a re-analysis of the deposited data

How the results depend on the processing

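The replicate block changed no count of members called in the 8 comparisons, and DESeq2 changed 1, calling 3 members lower with dsHMGB1 than LPS (Bcl2l1 gained). The replicate number as a block left the 7 higher and 1 lower with dsHMGB1, the 6 and 2 with LPS and the 6 and 3 with LPS/IFNγ, and gave 4.12, 4.84 and 4.77 for the Bcl2a1 sum. Same-numbered libraries did not deviate together (r −0.38 to 0.37), so the numbers were not taken as pairs. With each pair of conditions fitted alone, which leaves fewer libraries for the spread, dsHMGB1 had 4 members higher than PBS (Bcl2, Mcl1 and Bcl2l11 lost; 15.7% of all genes in that fit), LPS 1 lower (24.5%) and LPS/IFNγ 1 lower (22.4%), and dsHMGB1 was below LPS in 6 (21.7%), below LPS/IFNγ in 5 (27.6%), and LPS/IFNγ below LPS in 3 (30.1%). The Bcl2a1 sum then differed between dsHMGB1 and LPS (−0.69) and LPS/IFNγ (−0.67). A minimum of 1 CPM in 3 libraries put 2 members lower with dsHMGB1. RLE scaling, no filter and protein-coding genes only each left 1 lower against frHMGB1 (Bbc3 lost). The median log2 fold change of all genes with LPS was −0.27 under TMM and −0.16 with protein-coding genes only. Signs turned in values near 0: LPS/IFNγ against LPS for the Bcl2a1 sum (0.000609 at 1 CPM, 0.0281 protein-coding), Bcl2a1d (0.00521 and 0.0323) and Mcl1 (−0.0124 under DESeq2, −0.0122 under RLE and −0.0132 for the pair alone), and frHMGB1 against PBS for Bbc3 (−0.0236, protein-coding). The cause of these shifts was not tested.

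With each library left out in turn, counts ranged from 0 to 4 for higher with frHMGB1, 1 to 2 for lower with dsHMGB1, 1 to 3 for lower with LPS, and 2 to 6 for dsHMGB1 below LPS. They ranged from 2 to 4 above and 2 to 5 below for dsHMGB1 against LPS/IFNγ, 1 to 2 for LPS/IFNγ below LPS and 1 to 2 for dsHMGB1 below frHMGB1. Most gains came without PBS replicate 3. Log2 fold changes (edgeR) of frHMGB1 over PBS ranged from −0.33 to 0.19 for Bcl2, −0.10 to 0.0507 for Mcl1, −1.14 to 0.26 for Bcl2a1a, −0.99 to 0.68 for Bcl2a1b, −0.65 to 0.67 for Bcl2a1d, −0.92 to 0.65 for their sum, −0.64 to 0.37 for Bax, −0.0387 to 0.22 for Bcl2l11, −0.21 to 0.31 for Bmf and −0.0417 to 0.31 for Bbc3. Bax over PBS ranged from −0.61 to 0.40 with dsHMGB1 and −0.88 to 0.16 with LPS, Bcl2 from −0.49 to 0.0467 with LPS/IFNγ, and Bax from −0.13 to 0.12 for dsHMGB1 over frHMGB1. LPS/IFNγ over LPS ranged from −0.0426 to 0.0256 for Mcl1 and −0.87 to 0.11 for Bmf. The Bcl2a1 sum ranged from −0.89 to −0.60 for dsHMGB1 over LPS and −0.82 to −0.59 over LPS/IFNγ. Values without PBS replicate 3 beside the others, and lengths of the longest coding transcript, were chosen after seeing the data. That length gave 29.4 (Bcl2), 2038 (Bcl2l1), 3777 (Bax), 2072 (Bcl2l11) and 956 (Bbc3) normalized counts per kb with dsHMGB1, against 23.1, 1141, 2636, 1299 and 817 by merged exons. Depth limits Bmf with LPS and LPS/IFNγ, at 8 raw counts in the lowest library.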
